A study of Zea mays with 16 samples.

Results

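Genes whose transcripts were plainly present in leaves of one maize inbred and at or near 0 in leaves of another were collected for the lines B73 and M37W. A gene ID was taken as on in a line when it reached at least 10 CPM (counts scaled to each library's total) in all 4 libraries of that line, and as off when it stayed at or below 1 CPM in all 4. Of the 44146 nuclear IDs in the count tables, 52 were on in B73 and off in M37W, and 29 were on in M37W and off in B73, 81 in all. They were 0.622% of the 8355 IDs on in B73 and 0.359% of the 8086 IDs on in M37W. The members were thus chosen by their measured CPM in B73 and M37W, so these levels are given as a description and no test was made on them.

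The study chilled 4 maize lines, B73, M37W, B104 and CML333, at 4 °C and kept controls at 26 °C, and leaf RNA of each line and temperature was sequenced in 2 libraries, which makes 16. The day lasted 14 h and the night 10 h, under an irradiance of 250 µmol per square metre and second. The labels name no transgene or mutation, and they do not state the plants' age, the hours of chilling and how many plants a library pools. Libraries were read from the 3′ end of transcripts and held 1780344 to 2705564 counts, so 10 CPM stood for 17.8 to 27.1 counts and 1 count for 0.370 to 0.562 CPM.

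B73 supplied the reference genome of maize, and the gene IDs used here, which begin with Zm00001d, belong to an annotation of that genome. B104 and B73 both trace back to the Iowa Stiff Stalk Synthetic population, while M37W comes from South Africa and CML333 from the tropical breeding material of CIMMYT. Maize inbreds are known to differ from each other in gene content and in regulatory sequence, and transcripts present in one inbred and missing from another are a known feature of the species. Maize is of tropical origin and its leaves are sensitive to chilling.

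None of the 81 IDs was paired with a symbol or a function in the files, and 0 of the 44146 nuclear IDs had an entry in the RefSeq gene table. The members are therefore described by ID and value, and no role is given to any of them. The tissue label could not be checked against leaf markers by name for the same reason. In bulk leaf RNA, fewer cells that use a gene and less RNA per cell cannot be told apart. The IDs belong to an annotation of B73 and the reads come from the 3′ end of transcripts. Whether reads of the other lines were assigned to these IDs as well as those of B73 was not tested. An off state therefore means few or no counts under that ID.

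Libraries that stood apart bear on what follows. The B104 libraries at 26 °C correlated with the other 14 libraries at r = 0.516 to 0.622 across genes on log2(CPM + 1), whereas pairs of those 14 reached 0.737 to 0.973. Libraries with the label CML333 at 26 °C correlated at 0.875 to 0.889 with M37W at 26 °C and at 0.766 to 0.881 with the libraries of their own label at 4 °C. The first range is near that of B73 with M37W at 26 °C, 0.871 to 0.876, so it does not single out CML333. Between its own temperatures M37W reached 0.908 to 0.922, whereas CML333 at 26 °C with M37W at 4 °C reached 0.827 to 0.843. The chilled CML333 replicates correlated at 0.855, the lowest of the 8 groups. Their correlations ran from 0.772 to 0.865 with chilled B73 and from 0.791 to 0.88 with chilled M37W. Genes are not independent replicates, so these values describe the libraries only. Whether the libraries labelled CML333 at 26 °C carry the right label was not tested, and this limit holds for each value under that label. Replicate correlations were 0.904 in B104 at 26 °C, 0.938 in B104 at 4 °C and 0.966 in CML333 at 26 °C. B73 and M37W, on which the choice of members rests, had replicate correlations of 0.961 at 4 °C and 0.965 at 26 °C for B73 and of 0.970 at 4 °C and 0.973 at 26 °C for M37W.

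The 52 IDs on in B73 had a lower median level there than all IDs that met the same minimum. Their mean over the 4 B73 libraries ran from 13.2 to 145.4 CPM with a median of 25.7 CPM, against a median of 45.0 CPM over all 8355 IDs that met the same minimum in B73. In 36 of the 52 the mean was at least 20 CPM, and in 3 it was at least 100 CPM. In M37W 20 of the 52 had 0 counts in all 4 libraries, 25 had 1 to 3 counts over the 4, and 7 had more than 3, with 7 counts as the most. Against 8214040 counts in the 4 M37W libraries, 0 counts allow a level of up to 0.365 CPM (3 counts). With that floor over the 4 libraries, the 20 IDs were at least 42.5-fold to at least 196.5-fold higher in B73.

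The 29 IDs on in M37W also had a lower median level than all IDs on in that line. Their mean over the 4 M37W libraries ran from 16.7 to 326.4 CPM with a median of 35.1 CPM, against 43.1 CPM over all 8086 IDs on in M37W. In B73 13 of the 29 had 0 counts in all 4 libraries, 13 had 1 to 3 counts and 3 had more than 3, with 5 counts as the most. The 4 B73 libraries held 9211669 counts, so that 0 counts allow up to 0.326 CPM (3 counts over the 4 libraries). On that floor the 13 IDs were at least 54.6-fold to at least 241.1-fold higher in M37W. These limits cover counting error only, and not a difference between the lines in how well reads were assigned to the IDs.

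The rule's edge fell among similar IDs. The member nearest to it on the B73 side had 25.2 and 10.1 CPM at 4 °C and 13.9 and 10.7 CPM at 26 °C in B73, with 0.512 and 0 CPM at 4 °C and 0 and 0.906 CPM at 26 °C in M37W. The nearest ID outside had 38.8 and 28.1 CPM at 4 °C and 41.4 and 27.2 CPM at 26 °C in B73, and it missed the rule because 1 M37W library reached 1.02 CPM. On the M37W side the nearest member had 10.2 and 13.8 CPM at 4 °C and 21.2 and 22.2 CPM at 26 °C in M37W. The nearest ID outside had 28.2 and 22.2 CPM at 4 °C and 9.88 and 16.3 CPM at 26 °C in M37W, with 0 counts in B73. A further 39 IDs on in B73 peaked between 1 and 2 CPM in M37W, and 11 IDs on in M37W did so in B73.

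**Figure D1:**
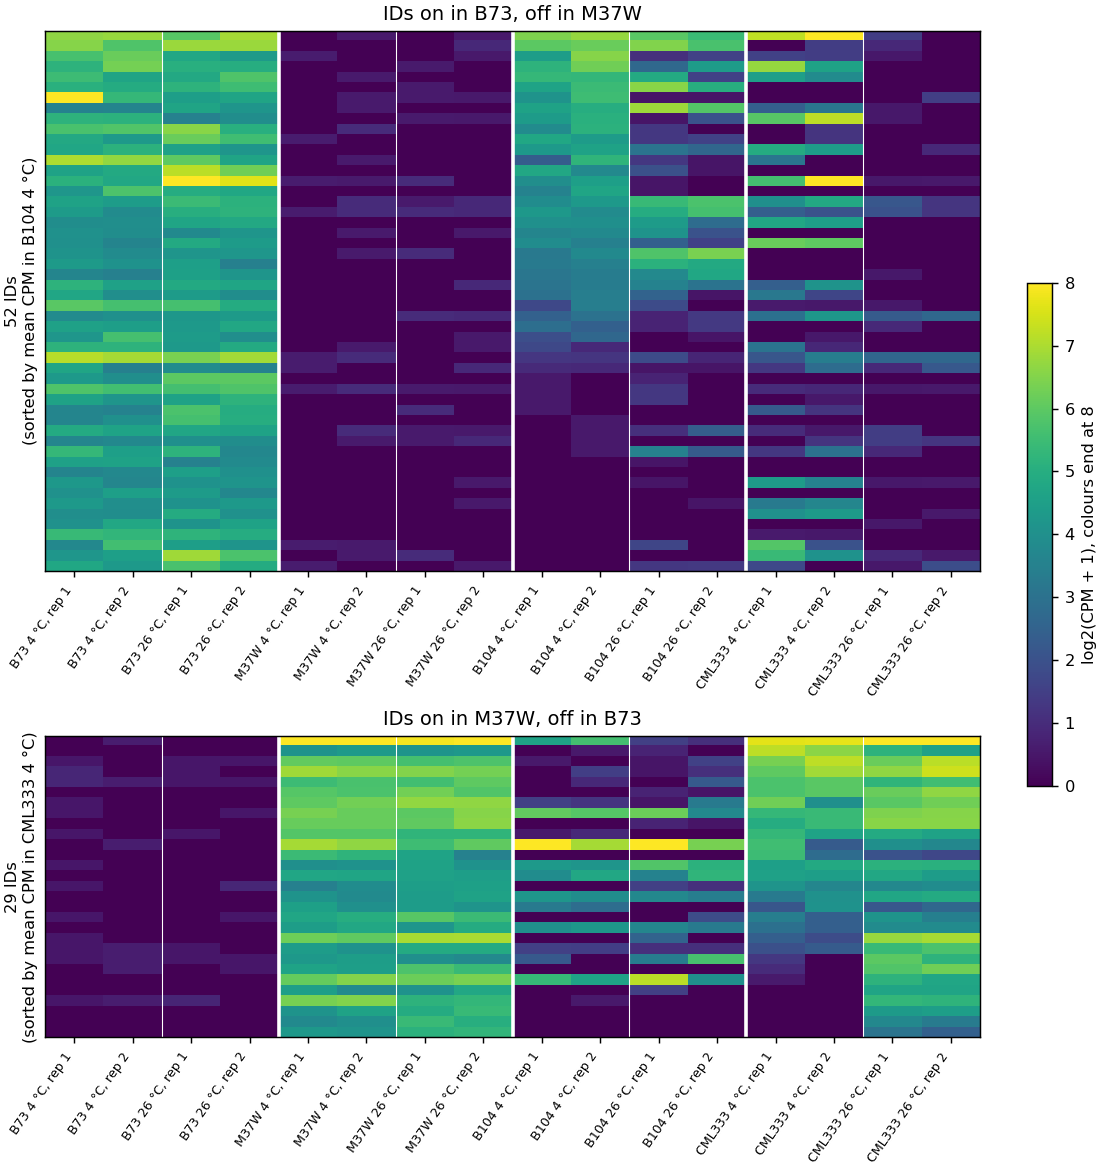
Level of each of the 52 IDs on in B73 (top) and the 29 on in M37W (bottom), one row per ID, in each of the 16 libraries, as log2(CPM + 1). The B73 and M37W columns differ by the choice of the IDs, whereas the B104 and CML333 columns were not used to choose them and hold a mixture of high and low rows, except the CML333 26 °C columns, which resemble M37W.

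The 2 most abundant members on in B73 were Zm00001d051088 and Zm00001d026368. Zm00001d051088 had 33.5 and 27.0 CPM at 4 °C and 324.1 and 196.9 CPM at 26 °C in B73, against 0.512 and 0.493 CPM at 4 °C and 0.988 and 0 CPM at 26 °C in M37W. Zm00001d026368 had 138.8 and 120.8 CPM at 4 °C and 82.1 and 117.0 CPM at 26 °C in B73, against 0.512 and 0.986 CPM at 4 °C and 0 counts at 26 °C in M37W. In B73 the temperatures lay far apart for Zm00001d051088, whereas for Zm00001d026368 the nearest libraries of the temperatures differed by less than the replicates did. No M37W library passed 2 counts for either ID.

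The 2 most abundant members on in M37W were Zm00001d005458 and Zm00001d043513. Zm00001d005458 had 340.3 and 313.5 CPM at 4 °C and 237.5 and 414.3 CPM at 26 °C in M37W, against 0 and 0.562 CPM at 4 °C and 0 counts at 26 °C in B73. Zm00001d043513 had 73.7 and 65.6 CPM at 4 °C and 122.0 and 125.5 CPM at 26 °C in M37W, against 0.413 and 0 CPM at 4 °C and 0 counts at 26 °C in B73. The M37W libraries of Zm00001d005458 overlapped between temperatures, and those of Zm00001d043513 did not.

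Libraries of B104 and CML333 did not enter the choice, so their states are a measurement apart from it. In B104 at 4 °C the 52 IDs on in B73 split evenly, with 20 on in both libraries, 20 off in both and 12 in neither state. No ID was on in one of the replicates and off in the other. Over all 8355 IDs on in B73, 87.8% were on and 0.586% off in both of these B104 libraries. Here and below, shares over all IDs on in a line include the members. Of the 29 IDs on in M37W, 8 were on and 16 off in both B104 libraries at 4 °C, where 86.7% and 0.581% of all 8086 IDs on in M37W were on and off. B104 at 4 °C therefore held the B73 state, on or off, at 36 of the 81 IDs and the M37W state at 28.

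Members on in chilled B104 were compared in level with the line that expressed them. At 17 of the 20 IDs on in B73 and in chilled B104 the means were within 1 unit of log2(CPM + 1) of chilled B73, with a median difference, B104 minus B73, of -0.19 and extremes of -2.05 and 1.21. Among all 7334 IDs on in both, 88.6% were within 1 unit. At 5 of the 8 IDs on in M37W and in chilled B104 the means were within 1 unit of chilled M37W, against 85.6% of 7007 IDs, with a median difference, B104 minus M37W, of -0.32 and extremes of -3.24 and 1.16. At 26 °C, 7 of 9 IDs on in B73 and 2 of 5 on in M37W were within 1 unit in B104, against 58.0% and 57.0% of all IDs on in both. Since an ID had to reach 10 CPM in both groups to be counted, larger differences were left out of these shares.

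B104 at 26 °C, where the libraries stood apart from the rest, held fewer members on. Of the 52 IDs on in B73, 9 were on and 19 off in both libraries (66.1% and 2.94% of all 8355 IDs), and of the 29 on in M37W, 5 were on and 11 off (67.7% and 2.57% of 8086). B104 at 26 °C thus held the B73 state at 20 of the 81 IDs and the M37W state at 24, unlike B104 at 4 °C. In 3 of the 81 IDs the state was on in both B104 libraries at 4 °C and off in both at 26 °C, and in 0 it was the opposite. All 3 were on in B73, and 1.38% of all 8355 IDs on in B73 had that pattern. Zm00001d051088 was one of the 3, with 14.3 and 21.9 CPM at 4 °C and 0.370 and 0 CPM at 26 °C. Whether the difference of these libraries from the others plays a part in the states at 26 °C was not tested.

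**Figure D2:**
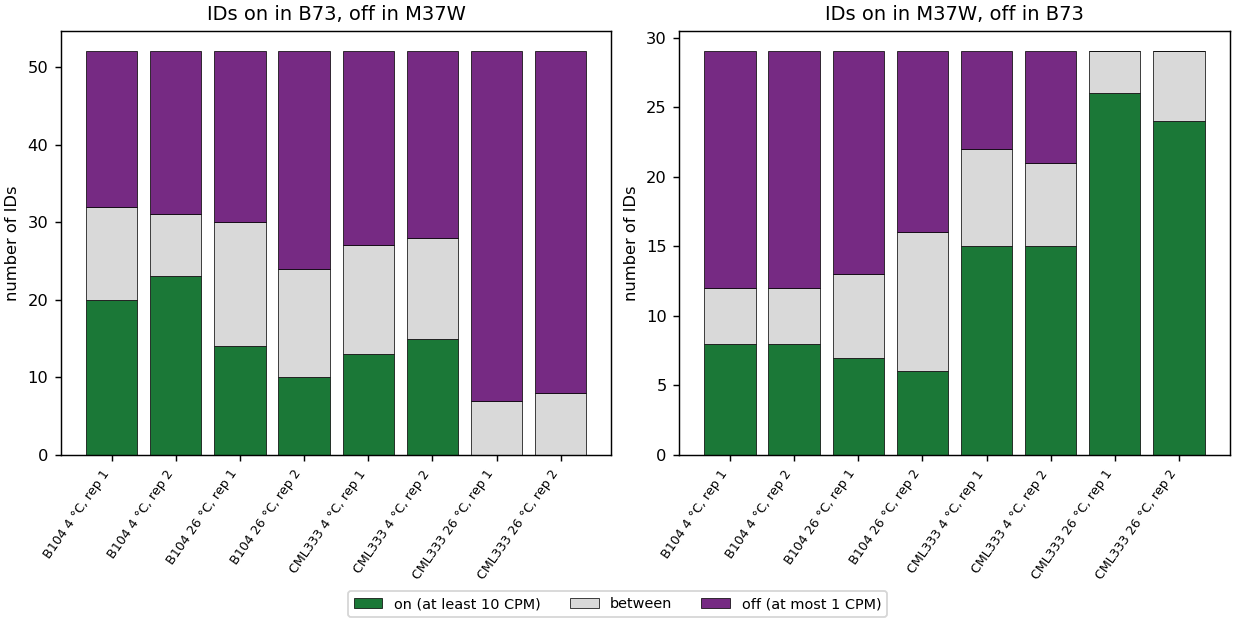
Number of IDs that were on (at least 10 CPM), off (at most 1 CPM) or between in each library of B104 and CML333, for the 52 IDs on in B73 (left) and the 29 on in M37W (right). The CML333 libraries at 26 °C have 0 of the 52 and 24 to 26 of the 29 on, whereas those at 4 °C have 13 to 15 of the 52 and 15 of the 29 on.

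The libraries labelled CML333 differed in state between the temperatures. At 4 °C 12 of the 52 IDs on in B73 were on in both libraries and 21 were off, where 82.6% and 0.969% of all 8355 IDs were on and off. At 26 °C 0 of the 52 were on in either library, 42 were off in both and 10 were between in at least 1. Of the 8355, 85.7% were on and 1.76% off in both. Of the 29 IDs on in M37W, 13 were on and 7 off in both libraries at 4 °C (84.0% and 0.742% of all 8086). At 26 °C 24 were on in both and 0 off in either, where 90.3% and 0.705% of the 8086 were on and off in both. The libraries labelled CML333 at 26 °C thus held the M37W state at 66 of the 81 IDs and the B73 state at 0. Those at 4 °C also held the M37W state more often, at 34 of the 81 IDs, against 19 with the B73 state.

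In 15 of the 81 IDs the CML333 libraries had opposite states, on in both at 1 temperature and off in both at the other. All 15 held the B73 state at 4 °C and the M37W state at 26 °C: 10 IDs on in B73 were on at 4 °C and off at 26 °C and 5 IDs on in M37W were off at 4 °C and on at 26 °C. Of all 8355 IDs on in B73, 0.239% (20 IDs, the 10 members among them) had the first pattern. Of all 8086 on in M37W, 0.42% (34 IDs, the 5 members among them) had the second. The reverse patterns had 0 members each. Of the 24 IDs on in M37W and in the CML333 libraries at 26 °C, 21 were within 1 unit of log2(CPM + 1) of M37W at 26 °C (79.6% of 7298 IDs on in both), with a median difference, CML333 minus M37W, of 0.23. For these 15 IDs temperature and anything else that sets the 26 °C libraries of CML333 apart cannot be told apart.

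Among the chilled libraries, 9 of the 52 IDs on in B73 were on in both B104 and CML333 and 10 were off in both, where 76.8% and 0.168% of all 8355 IDs on in B73 were. Another 5 were on in B104 and off in CML333, where 0.491% of the 8355 were. The opposite held for 3, Zm00001d009814, Zm00001d012797 and Zm00001d052675, and for 0.168% of the 8355. Of the 29 IDs on in M37W, 4 were on in both chilled lines and 6 off in both, where 77.3% and 0.136% of all 8086 IDs on in M37W were. A further 7 were off in B104 and on in CML333 (0.223% of the 8086), and 1, Zm00001d021244, was the opposite (0.359%). That ID had 39.8 and 24.1 CPM at 4 °C in B104 and 0.481 and 0 CPM at 4 °C in CML333. At 9 of the 12 IDs on in B73 and in chilled CML333 the means were within 1 unit of log2(CPM + 1) of chilled B73, against 82.8% of 6899 IDs on in both. At 11 of the 13 IDs on in M37W and in chilled CML333 they were within 1 unit of chilled M37W, against 81.9% of 6790 IDs.

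The count was repeated over nuclear IDs that are not members, as IDs on in both libraries of one group and off in both of another, in either direction. Between 4 °C and 26 °C it was 46 in B73, 40 in M37W, 134 under the label CML333 and 509 in B104. Leaving out the members takes all 81 from the counts between B73 and M37W and fewer from the other pairs. Between lines at 26 °C the smallest count was 110, between CML333 and M37W, followed by 138 between B73 and M37W and 254 between CML333 and B73. At 4 °C the counts included 95 between B104 and B73, 112 between B73 and M37W, 122 between CML333 and M37W and 151 between CML333 and B73. With the members the order at 4 °C changed, to 123 between B104 and B73, 193 between B73 and M37W, 141 between CML333 and M37W and 185 between CML333 and B73. At 26 °C the counts with the members were 110 between CML333 and M37W, 219 between B73 and M37W and 320 between CML333 and B73, and between the CML333 temperatures 149. The libraries labelled CML333 at 26 °C were thus nearer to M37W at 26 °C than to their own label at 4 °C by this count, with and without the members. The chilled CML333 libraries were likewise nearer to chilled M37W than to their own label at 26 °C, by a smaller margin. Their counts were 122 against 134 without the members and 141 against 149 with them.

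**Figure D3:**
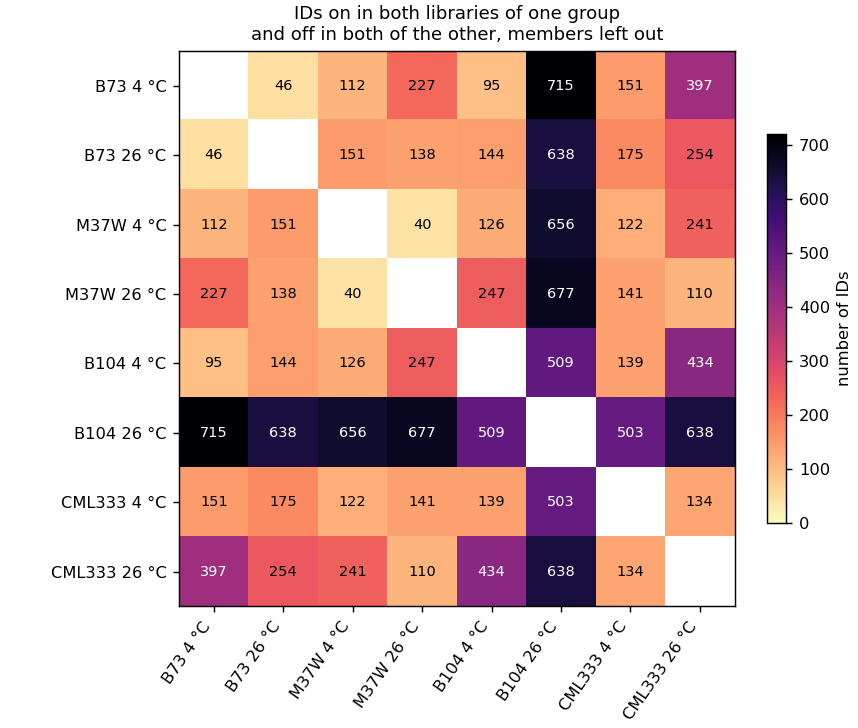
Number of nuclear IDs, members left out, that were on (at least 10 CPM) in both libraries of one group and off (at most 1 CPM) in both of the other, in either direction, for each pair of the 8 groups. B104 at 26 °C differs from every other group at 503 or more IDs, and CML333 at 26 °C differs from M37W at 26 °C at 110.

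Single members show the patterns by library, and apart from Zm00001d051088, Zm00001d026368, Zm00001d005458 and Zm00001d043513 those named here were chosen after their values were seen. Zm00001d048256 followed B73 in B104 alone. It had 92.5 and 55.1 CPM at 4 °C and 110.0 and 110.8 CPM at 26 °C in B73, and 62.0 and 71.8 CPM at 4 °C and 88.7 and 50.7 CPM at 26 °C in B104. In M37W it had 0 counts at 4 °C and 0 and 0.906 CPM at 26 °C, and in CML333 0 and 1.73 CPM at 4 °C and 0.875 and 0 CPM at 26 °C. The B73 and B104 libraries all stood above 50 CPM and the rest below 2 CPM, with no overlap.

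Zm00001d035628 was on in B73, in B104 and in chilled CML333. It had 101.6 and 108.4 CPM at 4 °C and 60.0 and 120.3 CPM at 26 °C in B73, and 87.0 and 105.7 CPM at 4 °C and 61.4 and 42.7 CPM at 26 °C in B104. Under the label CML333 it had 148.0 and 282.4 CPM at 4 °C and 1.75 and 0 CPM at 26 °C. The 26 °C libraries of CML333 stayed below 2 CPM, as did those of M37W, which had 0 and 0.493 CPM at 4 °C and 0 and 0.453 CPM at 26 °C.

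Zm00001d033225 was on in B73 alone. It had 54.9 and 47.2 CPM at 4 °C and 47.6 and 55.2 CPM at 26 °C in B73, and at most 1.48 CPM in any library of M37W, B104 or CML333. Of the 52 IDs on in B73, 20 reached 10 CPM in none of the 8 B104 and CML333 libraries, and 7 were at or below 1 CPM in all 8, where 0.826% and 0.0838% of all 8355 IDs on in B73 did so. The 7 members are the only IDs behind the 0.0838%. Of the 29 IDs on in M37W, 1 (Zm00001d024842) reached 10 CPM in none of the 8 and 0 were off in all 8, while 3 were on in all 8 and so off in B73 alone. Of all 8086 IDs on in M37W, 0.247% reached 10 CPM in none of the 8 and 56.6% were on in all 8. The last 3 were Zm00001d009803, Zm00001d045631 and Zm00001d049413.

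Zm00001d024751, on in M37W, had its highest mean in B104. It had 512.5 and 120.4 CPM at 4 °C and 526.3 and 80.9 CPM at 26 °C in B104, and 46.1 and 3.89 CPM at 4 °C and 14.9 and 12.1 CPM at 26 °C in CML333. In M37W it had 121.3 and 101.5 CPM at 4 °C and 44.5 and 64.8 CPM at 26 °C, against 0 and 0.562 CPM at 4 °C and 0 counts at 26 °C in B73. The B104 replicates lay further apart at each temperature than the temperatures did.

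Zm00001d043513 differed between the CML333 libraries labelled 4 °C and 26 °C, and no temperature direction is read from this. It had 4.33 and 2.60 CPM at 4 °C and 107.6 and 123.9 CPM at 26 °C under that label, and in B104 0 counts at 4 °C and 4.81 and 0 CPM at 26 °C. Zm00001d005458, also on in M37W, had 23.6 and 47.7 CPM at 4 °C and 1.85 and 1.13 CPM at 26 °C in B104, and 202.3 and 209.3 CPM at 4 °C and 325.3 and 504.4 CPM at 26 °C in CML333. Zm00001d026368, on in B73, reached 10 CPM in no library of B104 or CML333 and lay between 0.756 and 9.52 CPM there.

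**Figure D4:**
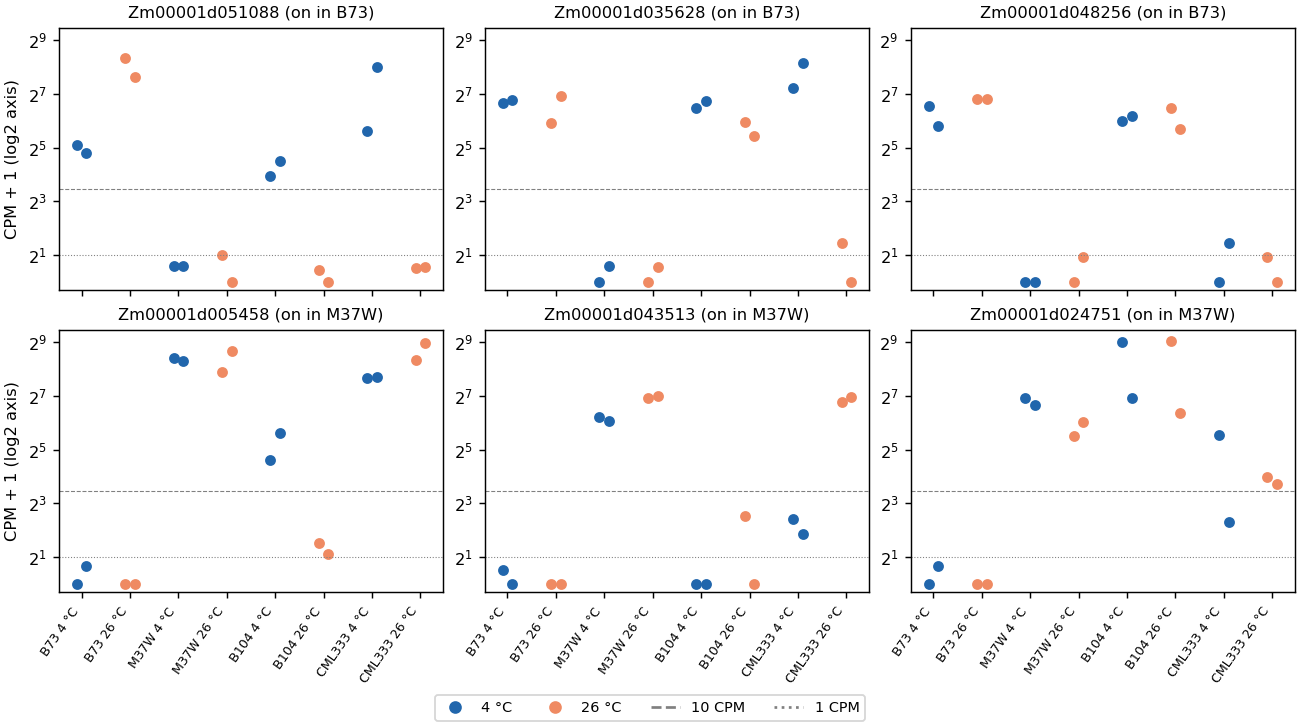
Level of 6 members in the 2 libraries of each group, as CPM + 1 on a log2 axis, with points at 4 °C in blue and at 26 °C in orange and dashed and dotted lines at 10 and 1 CPM. The upper row holds IDs on in B73 and the lower row IDs on in M37W. The CML333 libraries at 26 °C are low in the upper row and above 10 CPM in the lower row. These 6 IDs are a selection. Over all members, 42 of the 52 were off and 24 of the 29 on in both CML333 libraries at 26 °C.

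The response to temperature was tested in the line that expressed the ID, by edgeR's quasi-likelihood test on the 8 libraries of B73 and M37W with Benjamini-Hochberg adjustment over all 15174 IDs tested. The rule did not use the difference between temperatures, but it asked for at least 10 CPM in every library of the line and so left out IDs that one temperature brings near 0. All 52 and all 29 members were tested. As the labels do not say that replicates came from separate plants, p-values measure the spread between these libraries, which may be technical.

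In B73, chilling changed 13 of the 52 members that are on in B73. At an adjusted p under 0.05, 6 rose and 7 fell (11.5% and 13.5%), where 15.8% of all IDs tested rose and 12.0% fell. Over the 8355 IDs with at least 10 CPM in every B73 library, 16.1% rose and 10.7% fell. The share of members called, 25.0%, lay near the 27.8% of all IDs and the 26.8% of those 8355, and the members' median log2 fold change was 0.24, against 0.05 over the 8355 IDs. The share of members called was thus near that of other B73 genes, which is not a result about the members.

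Zm00001d051088 fell most, with a log2 fold change of -2.81 (SE 0.301, edgeR adjusted p 5.19e-06). Its 33.5 and 27.0 CPM at 4 °C stayed well below its 324.1 and 196.9 CPM at 26 °C. Under the label CML333 it had 48.1 and 258.6 CPM at 4 °C and 0.437 and 0.447 CPM at 26 °C, and since the 26 °C libraries of that label held M37W states, no temperature direction is read from these values. Zm00001d026368 had a log2 fold change of 0.65 (SE 0.262) and did not pass, at an edgeR adjusted p of 0.0777. Zm00001d051251 fell as well, to 23.5 and 28.1 CPM at 4 °C, against 143.3 and 75.8 CPM at 26 °C (log2 fold change -1.79, SE 0.323, edgeR adjusted p 0.000879).

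Zm00001d006213 rose to 35.1 and 34.3 CPM at 4 °C, against 10.5 and 14.0 CPM at 26 °C (log2 fold change 1.77, SE 0.349, edgeR adjusted p 0.00151). The largest fitted rise, that of Zm00001d007285, rests on 1 library. That ID had 336.7 and 39.3 CPM at 4 °C and 21.3 and 24.3 CPM at 26 °C, a log2 fold change of 3.29 (SE 0.932, edgeR adjusted p 0.0476). Without chilled B73 replicate 1 the fold change was 1.11 and the call was lost, and it was lost too in 13 of the other 18 alternatives, with adjusted p over all 19 from 1.96e-07 to 0.287. The other 4 IDs that rose had log2 fold changes from 1.14 (Zm00001d048136) to 1.71 (Zm00001d003044), and the other 5 that fell had -1.04 (Zm00001d025528) to -1.81 (Zm00001d009814). The value of Zm00001d048136 rests on chilled B73 replicate 2, without which it was 0.39 (edgeR adjusted p 0.543), and its call was lost too without either 26 °C replicate of B73. Of the 13 calls, 7 held in every edgeR fit without 1 library and 6 were lost in at least 1. Those lost were Zm00001d007285, Zm00001d048136, Zm00001d005952 (without 26 °C replicate 1 or either chilled replicate), Zm00001d025528 (26 °C replicate 1 or chilled replicate 2), Zm00001d048639 (replicate 1 of either temperature) and Zm00001d044117 (26 °C replicate 1). Of the 52 members, 8 passed in the same edgeR fit at an adjusted p under 0.01.

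In M37W, chilling changed 6 of the 29 members that are on in M37W. Of these 3 rose and 3 fell (10.3% each), where 10.5% of all IDs tested rose and 8.35% fell, and where 9.68% and 9.53% of the 8086 IDs with at least 10 CPM in every M37W library did. The share called was 20.7%, against 18.9% of all IDs and 19.2% of those 8086, and the median log2 fold change was -0.17, against -0.02 over the 8086 IDs. Here too the share was near that of the other genes and is not a result about the members.

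Zm00001d041436 rose to 80.9 and 89.2 CPM at 4 °C, against 35.1 and 38.1 CPM at 26 °C in that line (a log2 fold change of 1.27 with SE 0.283, edgeR adjusted p 0.00463). Its 4 °C and 26 °C libraries did not overlap. Under the label CML333 it had 0 counts at 4 °C and 38.0 and 35.8 CPM at 26 °C, from which no temperature direction is read. Zm00001d024751, described above, rose too (log2 fold change 1.08, SE 0.290, edgeR adjusted p 0.0164). Zm00001d047062 fell to 12.8 and 14.8 CPM at 4 °C, against 42.0 and 31.3 CPM at 26 °C (log2 fold change -1.35, SE 0.357, edgeR adjusted p 0.0158). Zm00001d043513 fell by 0.78 on the log2 scale (SE 0.254, edgeR adjusted p 0.0432). The other 2 calls were a rise of Zm00001d029163 (1.23 on the log2 scale with SE 0.394, edgeR adjusted p 0.0411) and a fall of Zm00001d015942 (log2 fold change -1.01, SE 0.336, edgeR adjusted p 0.0444). The rise of Zm00001d029163 was 0.75 without M37W 26 °C replicate 2 and 1.94 without 26 °C replicate 1, and its call was lost without the first of these or either chilled replicate. Each of the 6 calls in M37W was lost without at least 1 M37W library, that of Zm00001d041436 only without 26 °C replicate 1 (edgeR adjusted p 0.0602). For Zm00001d005458 the log2 fold change was 0.05 (SE 0.286, edgeR adjusted p 0.936).

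These counts depend on the tool and on which libraries share the estimate of spread. With the 4 libraries of the expressing line alone, 12 of the 52 members passed in B73 and 9 of the 29 in M37W. Over all IDs in those fits, 3371 of 14449 passed in B73 and 4217 of 13257 in M37W. On the 8 libraries, limma voom called 15 members in B73 and 7 in M37W, and DESeq2 called 9 in B73. Of all 15174 IDs tested, limma voom called 4213 in B73 and 2776 in M37W, and DESeq2 3144 in B73. With all 16 libraries in 1 edgeR fit, 1 of the 52 members passed in B73 (Zm00001d051088) and 0 of the 29 in M37W, where 3.42% and 0.408% of all IDs passed, while 8 and 2 members had an unadjusted p under 0.05. The M37W count was also 1 without 26 °C replicate 1, 3 without 26 °C replicate 2, 1 without 4 °C replicate 1 and 2 without 4 °C replicate 2 of M37W, and 2 with DESeq2.

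**Figure D5:**
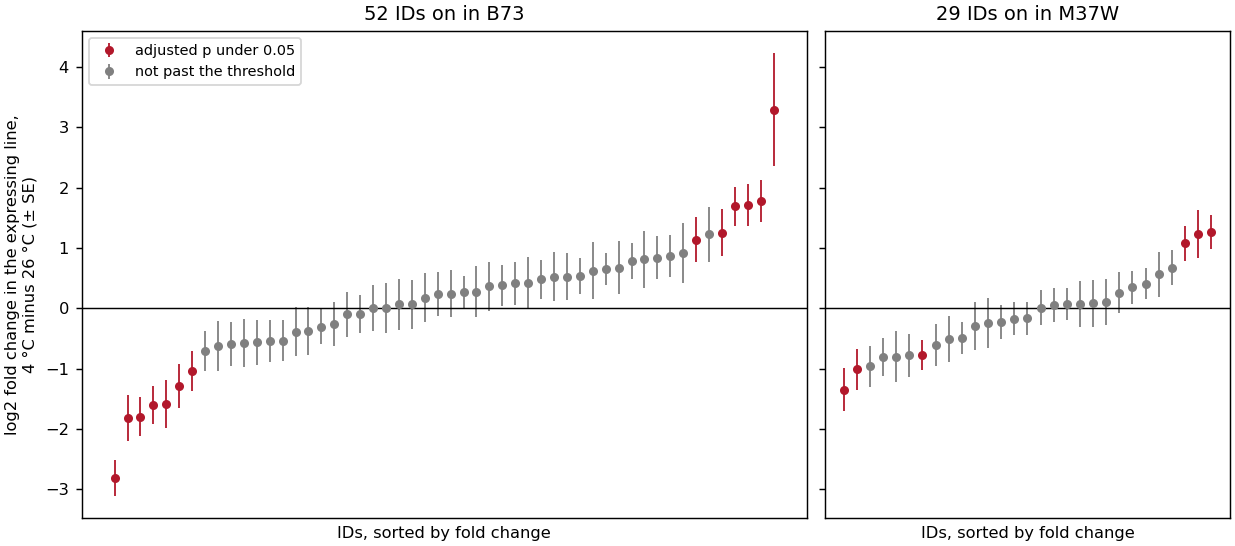
Log2 fold change of each member in the line that expresses it, 4 °C minus 26 °C, with bars of 1 SE, sorted within the 52 IDs on in B73 (left) and the 29 on in M37W (right). Red points passed an adjusted p under 0.05 in edgeR's test of the 8 libraries, 13 on the left and 6 on the right, on both sides of 0.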

How the data were processed

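Leaf RNA of 4 maize lines at 4 °C and 26 °C was counted in 16 libraries. The authors deposited whole-number counts per gene ID, not normalized. Libraries were made with a QuantSeq 3′ forward kit, per the labels' protocols, so counts do not scale with transcript length. The submitters' processing notes name the aligner STAR and the package edgeR, both without a version. The genome build, the annotation and the handling of multi-mapping reads: not given in the sources used here. Scaled tables per line, also from the authors, were not used.

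Groups came from the titles. CPM used each library's total. The 8 libraries of B73 and M37W were fitted with a mean for each of 4 groups (filterByExpr, TMM with factors from 0.897 to 1.18, estimateDisp, robust glmQLFit, glmQLFTest) in edgeR 4.0.16 under R 4.3.3, two-sided. The SE is the fold change over the square root of the F statistic. The fit was tested on simulated counts. No replicate pair held identical counts. Alternatives used DESeq2 1.42.0 and limma 3.58.1. Members, lists and tests were chosen with earlier results of these data known. By rule, the 2 members with the highest mean per direction were named, and other IDs were chosen after their values were seen. Description classes and positions were not analysed here, because no table paired the IDs with them.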

Additional observations from a re-analysis of the deposited data

How the results depend on the processing

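The number of members follows the thresholds. Against 81 (52 on in B73 and 29 in M37W), on at 20 CPM gave 33 (17 and 16), on at 5 CPM 184 (131 and 53), off at 0.5 CPM 53 (33 on in B73), off at 0 counts 33 (20 and 13) and off at 2 CPM 131 (91 on in B73). Without 1 library, which by construction loosens the rule, there were 85 to 99. States in B104 and CML333 were also set with on at 20 CPM and off at 0.5 CPM, with the 52 and 29 members kept as chosen. Only 17 of the 52 and 16 of the 29 reached 20 CPM throughout their own line, so lower shares follow in part from this setting. The share of IDs on in B73 that were on in both B104 4 °C libraries became 15.4% (38.5% as reported). In CML333 4 °C it was 13.5% (23.1% as reported). For IDs on in M37W it was 13.8% in B104 4 °C (27.6% as reported) and 6.9% in B104 26 °C (17.2% as reported). With on at 5 and off at 2 CPM the last share was 27.6%. An adjusted p under 0.01 left 8 chilling calls among members in B73 and 1 in M37W, and the fit of all 16 libraries 1 and 0. DESeq2 gave 9 and 2, limma voom 15 and 7, and the 4 libraries of the expressing line alone 12 and 9. Without 1 library the calls numbered 9 to 14 in B73 and 1 to 7 in M37W. No label says that a replicate number marks shared material, and the numbers were not taken to pair libraries: deviations of libraries with the same title number correlated at -0.0712 in B73 and 0.109 in M37W, 1 value per line, and by description number B73 shares 1 number between temperatures and gives no value. The replicate block by title number gave 12 and 5 calls and by description number 11 and 7. The log2 fold change of Zm00001d005458 in M37W changed sign in some fits without 1 library, with values between -0.30 and 0.52, and the cause was not tested. Depth limits the off state, since 1 CPM is at most 2 counts in a library.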
